A study of Homo sapiens with 12 samples.

Results

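NR0B1, an orphan nuclear receptor, and the corepressors NCOR1, NRIP1 and COPS2 were examined in A549 cells, a human lung adenocarcinoma line, in which NR0B1 had been overexpressed or knocked down. The 4 genes were chosen by symbol, out of 19647 genes in the table of transcript abundance, and account for 26 of its 82270 Ensembl transcripts. There were 3 libraries each of A549 cells overexpressing NR0B1, of the wild-type control of the overexpression, of A549 cells carrying a short hairpin against NR0B1 (shNR0B1), and of the wild-type control of the knockdown (shNC). All 12 were made from total RNA without any treatment, and an arm is here a manipulated group with its own control. The labels do not describe the overexpression construct or its promoter, the hairpin's target, whether the cells were clones, or whether replicates were separate cultures, so p-values measure the spread between these libraries only, which may be technical.

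Nuclear receptors are transcription factors that switch target genes according to the coregulators they recruit: coactivators open chromatin, and corepressors bring histone deacetylases. NR0B1 (DAX1) is unusual in that it lacks the classic DNA-binding domain of the family. It binds other receptors, best studied with the steroidogenic factor NR5A1 in adrenal and gonad, and recruits corepressors to them; loss of the gene causes adrenal hypoplasia. NCOR1 is the scaffold that activates the deacetylase HDAC3, NRIP1 (RIP140) binds liganded receptors and brings CtBP and class II deacetylases, and COPS2 (Alien) is both a subunit of the COP9 signalosome, which removes NEDD8 from cullins, and a receptor corepressor. NCOR1 and COPS2 have each been reported to bind NR0B1.

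Libraries held between 15049011 and 22797076 expected counts. Of 9 epithelial and NRF2-target markers, 8 stood at 1 FPKM or more in every library, where FPKM is the number of fragments scaled to transcript length and sequencing depth. The leukocyte marker CD3E was at 0; the summed leukocyte list, carried by CD68, stood at 42.3 to 57.9 FPKM with overexpression and 44.6 to 56.9 FPKM in its control, and at 18.4 to 59.6 FPKM in the knockdown and 15.1 to 22.8 FPKM in its control, and its part in the results was not tested. Further, the endothelial markers reached at most 0.23 FPKM, and markers of steroid-producing cells at most 0.09 FPKM with CYP11A1 at 0. Overexpression control replicate 1 and knockdown replicate 2 stood apart from their groups. Over 11908 genes, the mean correlation of log2(FPKM + 1) with the other libraries of the group was 0.959 for that control replicate, against 0.975 and 0.973 for the others of its group, and 0.933 for that knockdown replicate, against 0.958 and 0.950 for the others of its group. The knockdown libraries were thus all less alike than the overexpression libraries, at 0.984 to 0.987, or the knockdown controls, at 0.988 to 0.989. The control groups also differed from each other, with 33.4% of the genes tested called between them.

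A few short stretches at which transcripts of these genes differ are printed here. The transcripts also differ in length and ends, with 2021 and 475 bases for the NR0B1 pair and 2036 and 6628 for the COPS2 pair below. Levels by transcript therefore rest on more than these stretches. Sequences run 5′ to 3′ on the minus strand of GRCh38 as annotated in GENCODE 29, with the part that differs between transcripts in capitals. NR0B1 lies at chrX:30304206-30309598 and has 2 annotated transcripts that share the first splice donor. The long transcript, ENST00000378970, continues into the exon at chrX:30304206-30304823, and the short one, ENST00000378963, into an exon at chrX:30305674-30305855 that lies inside the intron of the long one. In COPS2, the exon at chr15:49137348-49137458 of ENST00000299259 carries 21 bases more than the same exon of ENST00000388901. In NCOR1, a coding exon of 27 bases at chr17:16151590-16151616 is present in ENST00000436828 and ENST00000582357 and absent from the other transcripts that span it.
NR0B1 long transcript: tgctctttaacccggACGTGCCGGGCCTGC
NR0B1 short transcript: tgctctttaacccggGAAAAGGGAAGGAAA
COPS2 longer exon: aacagAATTCTGATTTTTTATGTCAGatgg
NCOR1 short exon: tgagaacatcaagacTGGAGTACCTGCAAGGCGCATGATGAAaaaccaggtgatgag

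NR0B1 itself spanned a 31.4-fold range of summed FPKM over the 12 libraries. The overexpression libraries had 40.2, 33.4 and 35.2 FPKM, against 6.99, 24.6 and 22.02 FPKM in the overexpression controls. All 3 overexpression libraries were above all 3 controls, and replicate 1 of the controls was far below the other two. The knockdown libraries had 1.28, 1.36 and 2.45 FPKM, against 7.0, 9.01 and 5.47 FPKM in the knockdown controls, again without overlap. Group means were 36.3 ± 3.52 FPKM with overexpression and 17.9 ± 9.51 FPKM in its control, and 1.70 ± 0.654 FPKM in the knockdown and 7.16 ± 1.78 FPKM in its control (SD, n = 3 each). The knockdown libraries held 58, 54 and 95 expected counts of NR0B1, so that its level there rests on few fragments. In bulk RNA, fewer cells that express a gene and less RNA per cell cannot be told apart.

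NR0B1 fell in the knockdown by 2.06 on the log2 scale (standard error 0.42), with an edgeR adjusted p of 0.00593. With overexpression its log2 fold change was 0.99 (standard error 0.38, interval 0.15 to 1.83), which did not pass at an edgeR adjusted p of 0.0912. Without overexpression control replicate 1, that fold change was 0.61. DESeq2 gave an adjusted p of 0.0415 and limma on log2(FPKM + 1) one of 0.0452, within a range of 0.0415 to 0.199 over 21 alternatives. The difference between the arms was 3.05 (standard error 0.57, edgeR adjusted p = 0.00351). An exact permutation test of either arm gave a two-sided p of 0.1, the smallest that 3 against 3 libraries allow.

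The 2 control groups did not start from the same NR0B1 level. The overexpression control was higher than the knockdown control by 1.40 on the log2 scale (standard error 0.39, edgeR adjusted p = 0.0189), although overexpression control replicate 1 lay within the range of the knockdown controls. That call was lost without overexpression control replicate 2 or 3, or without knockdown control replicate 1 or 3, with log2 fold changes between 1.12 and 1.77 over the 12 fits that each leave out 1 library. Across the 4 groups the order was overexpression, overexpression control, knockdown control, knockdown. The first neighbours in that order missed the threshold, while the other neighbours passed it, and overexpression stood above the knockdown by 4.45 (standard error 0.45, edgeR adjusted p = 0.000221).

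**Figure D1:**
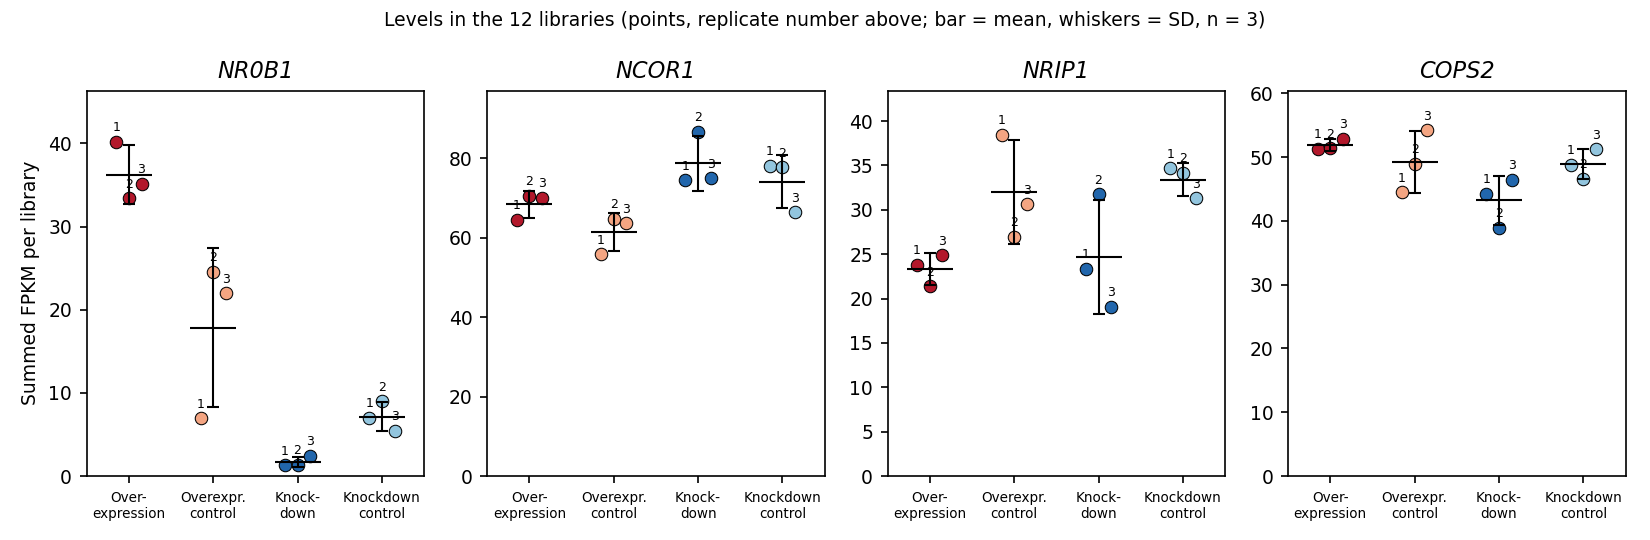
Summed FPKM of NR0B1, NCOR1, NRIP1 and COPS2 in each of the 12 libraries, with a point per library (replicate number above it), the mean as a bar and the SD as whiskers (n = 3). NR0B1 runs between 1.28 FPKM in a knockdown library and 40.2 FPKM in an overexpression library, while NCOR1 and COPS2 stay within 1.55-fold and 1.39-fold ranges.

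The long NR0B1 transcript carried nearly all of the signal in every group. Its share of the gene's FPKM was 96.4% ± 1.40 with overexpression and 98.5% ± 0.309 in its control, and 95.9% ± 3.66 in the knockdown and 97.7% ± 2.29 in its control (SD, n = 3 each). It fell in the knockdown by 2.06 on the log2 scale at an edgeR adjusted p of 0.0263, a call lost without knockdown replicate 1 or 2 or without any 1 of the 3 knockdown controls. The difference between the arms was 3.02 for this transcript (edgeR adjusted p = 0.0172). The short transcript had 1.24, 0.84 and 1.82 FPKM with overexpression, against 0.11, 0.44 and 0.26 FPKM in the overexpression control. These ranges did not overlap, but the log2 fold change of 2.2 missed the threshold at an edgeR adjusted p of 0.31. The short transcript passed the filter on low values only through the overexpression libraries, so the lack of overlap is no evidence of a rise. It held 10.3, 7.13 and 13.6 expected counts with overexpression, against 1.02, 4.71 and 2.39 in the control. In the knockdown the short transcript had 0.09, 0 and 0.13 FPKM, against 0.32, 0.22 and 0 FPKM in the knockdown control, values too low to order. The genes on either side, MAGEB1 at a distance of 52168 bases and CXorf21 at 249226 bases, were at 0 FPKM in all groups.

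The 3 corepressors were all more abundant than NR0B1 in most libraries. Mean summed FPKM over the 12 libraries was 70.6 for NCOR1, above 93.2% of the genes tested, 48.3 for COPS2, above 89.0%, 28.4 for NRIP1, above 79.5%, and 15.7 for NR0B1, above 63.4%. FPKM is a level per length of transcript and can be set side by side between genes. The ratio of NCOR1 to NR0B1 therefore ranged from 1.60 to 2.11 with overexpression and from 2.63 to 7.99 in its control, and from 30.6 to 63.7 in the knockdown and from 8.63 to 12.1 in its control. NRIP1 was the exception at the high end: its ratio to NR0B1 was between 0.592 and 0.707 with overexpression, so that NR0B1 exceeded it in all 3 of those libraries, against 1.1 to 5.51 in the control. These ratios are of RNA and move mostly with their denominator.

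None of the 4 genes was called with overexpression by edgeR, against 18.1% of all genes tested. At an unadjusted p below 0.05 there were 2, NR0B1 and NRIP1, and DESeq2 called 1, NR0B1. Of the 11908 genes tested, 4120 had an unadjusted p below 0.05 with overexpression and DESeq2 called 3078. In the knockdown 1 of the 4 was called, against 23.9% of all genes, and for the difference between the arms 1 of 4, against 25.6%. That gene was NR0B1 in both cases. It was also the only member called between overexpression and knockdown, where 18.8% of genes were. Medians over all genes tested were -0.03 with overexpression and 0.03 in the knockdown on the log2 scale.

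**Figure D2:**
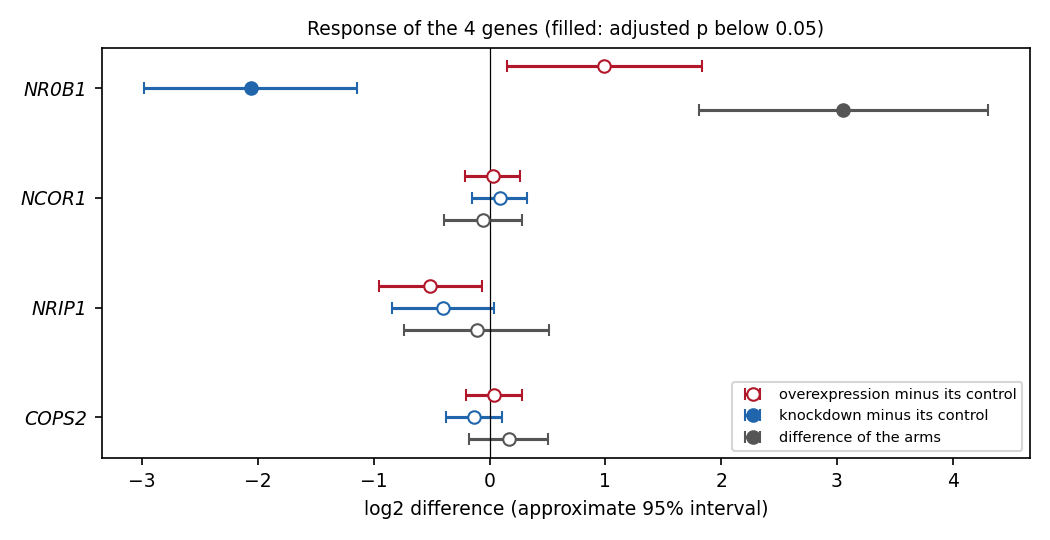
log2 difference of each gene with its approximate 95% interval, for each arm's manipulated cells against their own control and for the difference of the arms; filled points have an edgeR adjusted p below 0.05. Filled points belong to NR0B1 (-2.06 in the knockdown and 3.05 for the difference), and both NRIP1 responses lie below 0, at -0.51 and -0.40.

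NCOR1, at chr17:16029157-16218185, is the HDAC3 scaffold and was the most abundant of the 4. It had 64.5, 70.5 and 70.1 FPKM with overexpression, against 55.8, 64.7 and 63.6 FPKM in the control. In the knockdown it had 74.5, 86.6 and 74.99 FPKM, against 78.1, 77.8 and 66.4 FPKM in the control. The ranges overlapped in both arms. On summed counts the log2 fold change was 0.03 with overexpression (interval -0.21 to 0.27, edgeR adjusted p = 0.879) and 0.09 in the knockdown (standard error 0.11, edgeR adjusted p = 0.593), with a difference between the arms of -0.06 (interval -0.40 to 0.28). The sign of the overexpression value turned without 1 library or without both libraries that stand apart, and that of the difference turned with limma on FPKM. Averages were highest in the knockdown and lowest in the overexpression control, with the overexpression control minus the knockdown control at -0.13 (edgeR adjusted p = 0.38).

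NCOR1 overlaps TTC19 and PIGL on the other strand, and without a stated strand setting reads of overlapping exons cannot be told apart. TTC19, a mitochondrial complex III assembly factor, rose with overexpression by 0.41 on the log2 scale (edgeR adjusted p = 0.0484), with 31.9 ± 2.52 FPKM and 24.1 ± 3.13 FPKM in the control (SD, n = 3 each), and had a log2 fold change of -0.02 in the knockdown (edgeR adjusted p = 0.92). PIGL, an enzyme of GPI anchor synthesis, had 5.80 ± 1.99 FPKM with overexpression and 6.45 ± 3.32 FPKM in the control (SD, n = 3 each). Its fold changes missed the threshold in both arms.

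Of the 14 NCOR1 transcripts, 12 passed the filter on low values. ENST00000395851 held the largest share of FPKM, 30.9% ± 0.288 with overexpression and 34.3% ± 1.5 in its control, and 29% ± 0.972 in the knockdown and 31.2% ± 0.980 in its control (SD, n = 3 each). The share was lower than in the control in both arms, without overlap of the ranges in either. No NCOR1 transcript was called in either arm. ENST00000582357, which holds the 27-base exon, had 0.68, 0.40 and 3.17 FPKM in the knockdown, against 8.98, 8.59 and 7.33 FPKM in the knockdown control. With overexpression it had 5.81, 4.70 and 7.60 FPKM, against 0.12, 5.11 and 5.10 FPKM in the overexpression control. The knockdown values lay below all its controls, and overexpression control replicate 1 was as low as the knockdown. Its log2 fold change in the knockdown was -2.51 (interval -4.79 to -0.22, edgeR adjusted p = 0.222). ENST00000436828, the other transcript with the exon, was higher on average in the knockdown, at 10.1, 14.4 and 9.32 FPKM, against 7.79, 9.80 and 7.22 FPKM in the control. These ranges overlapped, and its log2 fold change was 0.49 (interval 0.06 to 0.91, edgeR adjusted p = 0.198), opposite in sign to that of ENST00000582357. ENST00000411510, which spans the exon's position without holding it, had 11.5, 10.4 and 10.7 FPKM in the knockdown, against 7.26, 4.87 and 5.66 FPKM in the control, for a log2 fold change of 0.92 (interval 0.15 to 1.68, edgeR adjusted p = 0.177).

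The share of NCOR1 transcripts with the 27-base exon, among the 7 that span it, was computed after these values had been seen and carries no test. By FPKM it was 34.4%, 34.4% and 34.9% with overexpression, against 21.1%, 30.1% and 28.4% in the overexpression control. It was 18.5%, 22.9% and 22.6% in the knockdown, against 27.6%, 30.9% and 28.2% in the knockdown control. The groups did not overlap in either arm, and the difference was 8.03 percentage points for overexpression and -7.56 points for the knockdown, each against its control. By expected counts over the same transcripts the differences were 3.45 and -2.35 points, without overlap. Among the 3 transcripts with an open end of the coding sequence they were 12.2 points, with overlap, and -20 points, without. Overexpression control replicate 1, with the lowest NR0B1 of its group, also had the lowest share of its group. Knockdown control replicate 1 had nearly the same NR0B1, 7.0 against 6.99 FPKM, but a share of 27.6% against 21.1%. The knockdown controls, at 5.47 to 9.01 FPKM of NR0B1, had shares like those of overexpression control replicates 2 and 3, at 24.59 and 22.02 FPKM. The exon and the transcripts it sits in were separated by the authors' counting, which divides reads shared between transcripts by a model.

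**Figure D3:**
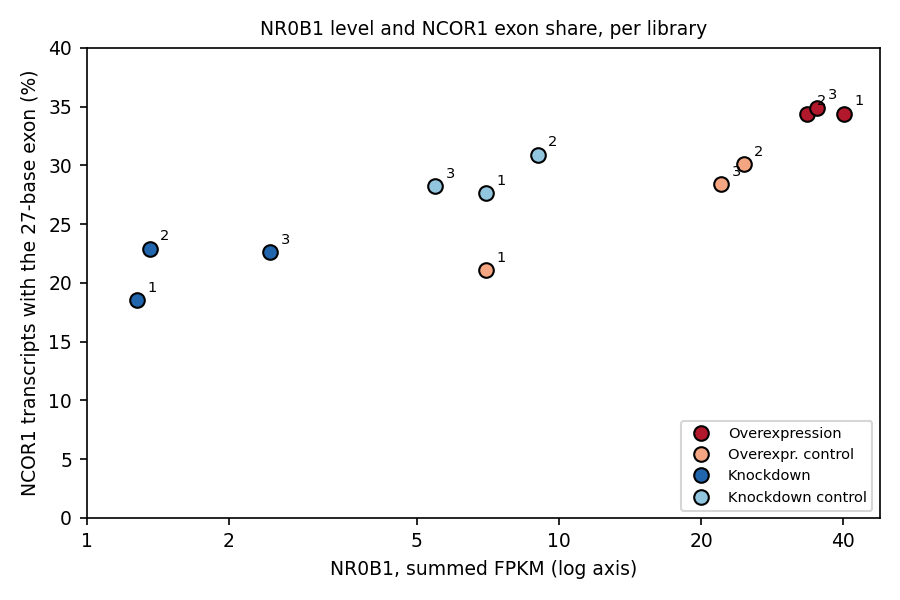
Share of NCOR1 transcripts that hold the 27-base exon (per cent of FPKM over the 7 transcripts that span it) against summed FPKM of NR0B1 on a log axis, with a point per library labelled by replicate. Overexpression libraries lie between 34.4% and 34.9%, knockdown libraries between 18.5% and 22.9%, and overexpression control replicate 1 at 21.1%. Knockdown controls lie between 27.6% and 30.9%, with their replicate 1 at 27.6% and nearly the same NR0B1 as overexpression control replicate 1. The points share library and depth.

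NRIP1, at chr21:14961235-15065936, was lower than its control on average in both arms, without passing the test in either. It had 23.8, 21.4 and 24.9 FPKM with overexpression, against 38.5, 26.95 and 30.7 FPKM in the control, without overlap. It had 23.4, 31.7 and 19.1 FPKM in the knockdown, against 34.7, 34.2 and 31.3 FPKM in the control, where knockdown replicate 2 fell within the range of the controls. Means were 23.3 ± 1.80 FPKM with overexpression and 32.0 ± 5.89 FPKM in its control, and 24.7 ± 6.43 FPKM in the knockdown and 33.4 ± 1.83 FPKM in its control (SD, n = 3 each). The log2 fold changes were -0.51 (standard error 0.20, edgeR adjusted p = 0.0985) and -0.40 (standard error 0.20, edgeR adjusted p = 0.168), and they differed by -0.11 (interval -0.74 to 0.52, edgeR adjusted p = 0.801). The exact permutation test gave p = 0.1 with overexpression and p = 0.2 in the knockdown.

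The NRIP1 values depended on the libraries that stand apart. Without knockdown replicate 2, NRIP1 fell in the knockdown by 0.64 (edgeR adjusted p = 0.0200) and the overexpression value of -0.50 passed as well (edgeR adjusted p = 0.0350). Without overexpression control replicate 1, the overexpression value was -0.32 (edgeR adjusted p = 0.259). Without both libraries the knockdown value was -0.63 (edgeR adjusted p = 0.00464) and the overexpression value -0.32 (edgeR adjusted p = 0.0724). Adjusted p-values over 21 alternatives ranged from 0.0350 to 0.262 with overexpression and from 0.00464 to 0.410 in the knockdown. The sign of the difference between the arms turned under 6 of 20 alternatives.

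The whole coding sequence of NRIP1, at chr21:14964719-14968192, lies in a single exon. ENST00000318948, ENST00000400199 and ENST00000400202 share it and differ in noncoding 5′ exons. ENST00000318948 held 63.8% ± 3.28 of the FPKM with overexpression and 63.6% ± 3.52 in its control, and 59.7% ± 2.64 in the knockdown and 63.0% ± 1.82 in its control (SD, n = 3 each). Its log2 fold changes of -0.49 (edgeR adjusted p = 0.185) and -0.47 (edgeR adjusted p = 0.201) were close to those of the gene. Without both libraries that stand apart, the knockdown value was -0.68 (edgeR adjusted p = 0.0298, the lowest of 20 alternatives, which reached 0.382). USP25, a deubiquitinase, is the next protein-coding gene at higher coordinates, at a distance of 664089 bases. It fell in the knockdown by 0.57 (edgeR adjusted p = 0.0106), with 20.3 ± 4.49 FPKM and 30.5 ± 1.22 FPKM in the control (SD, n = 3 each). SAMSN1, on the other side at a distance of 302414 bases, stood at most at a mean of 0.06 FPKM.

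COPS2, at chr15:49106068-49155661, had a coefficient of variation of 9.01% of summed FPKM over the 12 libraries, against 11.7% for NCOR1, 21.2% for NRIP1 and 91.9% for NR0B1. On counts scaled to depth NCOR1 varied less than COPS2, at 9.18% against 10.9%. It had 51.3, 51.4 and 52.9 FPKM with overexpression, against 44.5, 49.0 and 54.2 FPKM in the control. It had 44.3, 38.9 and 46.5 FPKM in the knockdown, against 48.8, 46.6 and 51.3 FPKM in the control. On FPKM the knockdown lay just below its controls, with 46.49 FPKM as its highest and 46.64 FPKM as the lowest control value. On counts scaled to depth the ranges overlapped. The log2 fold changes on counts were 0.03 with overexpression (interval -0.21 to 0.28, edgeR adjusted p = 0.854) and -0.13 in the knockdown (standard error 0.11, edgeR adjusted p = 0.409). The overexpression value changed sign without both libraries that stand apart. Overexpression stood 0.29 above the knockdown (edgeR adjusted p = 0.089), and the group means kept the order of NR0B1, although no pair of neighbours passed the test.

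Among COPS2 transcripts, ENST00000299259 with the 21 additional bases exceeded ENST00000388901 without them in every library, at 20.1 ± 1.79 and 5.15 ± 0.355 FPKM with overexpression and 16.2 ± 1.45 and 3.78 ± 0.431 FPKM in the knockdown (SD, n = 3 each). ENST00000388901 is also longer, at 6628 bases against 2036, and FPKM divides by length. Expected counts were closer, at 694, 810 and 602 against 559, 656 and 535 with overexpression. In the knockdown they were 716, 644 and 723 against 599, 435 and 557. The use of the 21 bases over all COPS2 transcripts was not determined. A shorter transcript, ENST00000542928, took 15.9% ± 3.56 of the FPKM with overexpression and 21% ± 1.74 in its control, and 25.5% ± 2.85 in the knockdown and 17.3% ± 1.45 in its control (SD, n = 3 each). The ranges did not overlap in either arm, and the directions were opposite, with a difference between the arms of -0.77 in log2 counts that missed the threshold (edgeR adjusted p = 0.16). ENST00000558843, whose annotated coding sequence has an open end, moved the other way in each arm on average. Its knockdown shares of 30.0%, 23.9% and 30.5% overlapped the 33.4%, 31.5% and 30.0% of the control. The difference between the arms was 0.77 (edgeR adjusted p = 0.146). That difference passed with DESeq2, with limma on log2(FPKM + 1) and without both libraries that stand apart, within adjusted p-values of 0.0455 to 0.276 over 19 alternatives. GALK2, a galactose kinase that overlaps the start of COPS2 on the other strand, had 9.82 ± 1.34 FPKM with overexpression and 13.2 ± 1.79 FPKM in its control (SD, n = 3 each) and was not called in either arm.

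**Figure D4:**
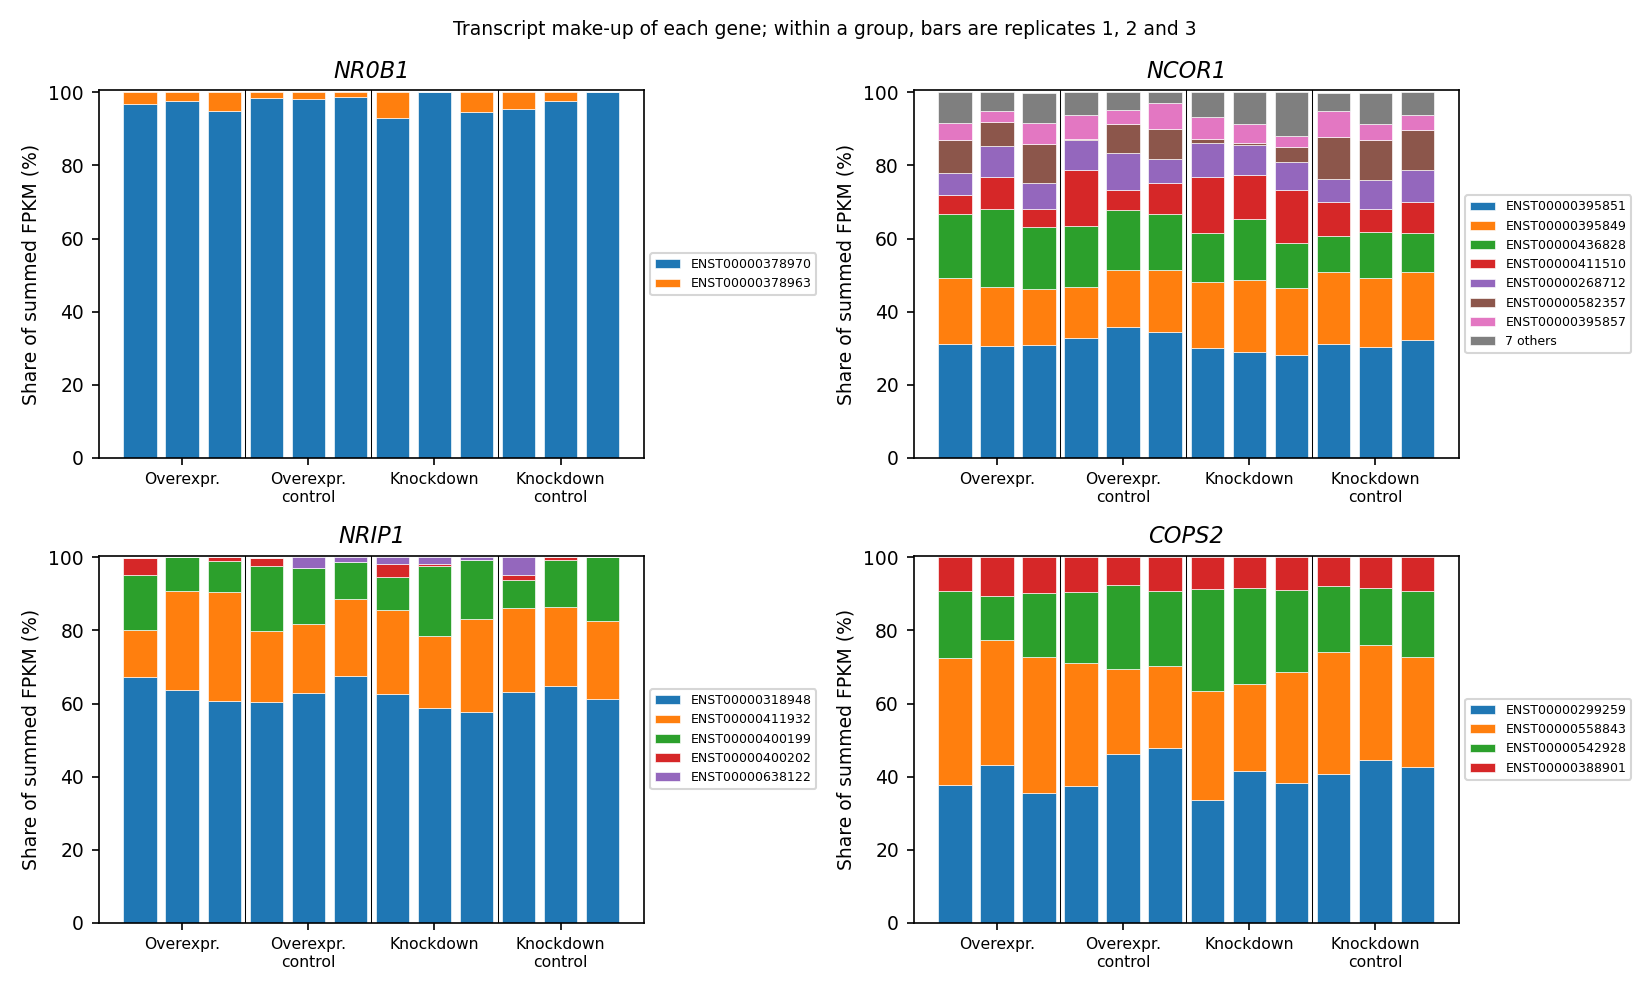
Share of each Ensembl transcript in its gene's summed FPKM, in per cent, per library; each group of 3 bars is a group and the bars within it are replicates 1 to 3. The long NR0B1 transcript holds at least 93.0% in every library, and the NCOR1 transcript ENST00000582357 is near 0 in overexpression control replicate 1 and knockdown replicates 1 and 2.

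Over the 23 transcripts of the 4 genes that were tested, edgeR called 0 with overexpression, against 3.37% of all transcripts, and 1 in the knockdown, against 4.47%. The difference between the arms also had 1 called, against 5.76%. At an unadjusted p below 0.05 there were 4, 5 and 5 of the 23 in these comparisons, taken in the same order. Of all 33607 transcripts tested, 6485, 6260 and 7068 had an unadjusted p below 0.05 there. With overexpression, DESeq2 called 0 and limma on log2(FPKM + 1) called 1, the short NR0B1 transcript. Over all 33607 transcripts tested, DESeq2 called 3897 and limma 2058. The short transcript passed the filter on low values only through the overexpression libraries, at few counts, so its limma call is no evidence of a rise.

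The partners with which these proteins act were followed as lists, 78 genes besides the 4, of which 62 were tested. With overexpression 8 of the 62 rose, against 9.87% of all genes tested, and 2 fell, against 8.20%. In the knockdown 4 rose, against 12.4%, and 8 fell, against 11.5%.

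In the NCoR core complex, which couples receptors to HDAC3, none of the 7 genes tested was called by edgeR in either arm, and DESeq2 called 0 in each. Of all genes tested, edgeR called 18.1% with overexpression and 23.9% in the knockdown, and DESeq2 called 3078 and 3567 of 11908. At an unadjusted p below 0.05 there were 0 of the 7 with overexpression and 1 in the knockdown, against 4120 and 4490 of the 11908 genes tested. The median log2 fold change was -0.09 with overexpression and 0.09 in the knockdown. CORO2A, an actin-binding subunit of the complex, differed between the arms by -1.66 (edgeR adjusted p = 0.0406), with 3.46 ± 0.390 FPKM with overexpression and 5.95 ± 0.287 FPKM in its control, and 3.64 ± 1.94 FPKM in the knockdown and 2.04 ± 0.848 FPKM in its control (SD, n = 3 each). That call was lost in 10 of the 12 fits without 1 library.

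In the SIN3 complex, another deacetylase scaffold, 1 of 15 rose and 1 fell with overexpression, and 2 fell in the knockdown. Of all genes tested, 9.87% rose and 8.20% fell with overexpression, and 11.5% fell in the knockdown. SIN3A, the scaffold itself, had 25.3, 26.6 and 26.6 FPKM with overexpression, against 40.6, 46.2 and 44.6 FPKM in the control. It fell by 0.70 on the log2 scale (edgeR adjusted p = 0.00834), a call kept in all 12 fits without 1 library. Its paralog SIN3B rose by 0.41 (edgeR adjusted p = 0.0427), a call lost in 7 of those fits. In the knockdown ARID4A fell by 0.85 and ARID4B by 0.49 (edgeR adjusted p = 0.0277 and 0.0202), both chromatin-binding subunits; these calls were lost without any 1 of knockdown replicate 1, knockdown replicate 3 or knockdown control replicate 3, and that of ARID4A also without knockdown control replicate 1. The median of the list was -0.04 with overexpression and -0.19 in the knockdown.

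The COP9 signalosome, of which COPS2 is a part, had no subunit called with overexpression out of 10, by edgeR or DESeq2. Of all genes tested, edgeR called 18.1% there and DESeq2 called 3078 of 11908. No subunit had an unadjusted p below 0.05 with overexpression, against 4120 of the 11908 genes tested. COPS6, the most abundant subunit, had 62.1 FPKM on average with overexpression and 69.3 FPKM in the control. In the knockdown 1 of 10 fell, against 11.5% of all genes tested. COPS5, the catalytic subunit that cleaves NEDD8, fell by 0.56 (edgeR adjusted p = 0.00376). It had 17.9, 17.2 and 18.6 FPKM in the knockdown, against 25.9, 25.8 and 29.4 FPKM in its control. The overexpression libraries at 17.4 ± 0.985 FPKM and their control at 17.8 ± 0.571 FPKM (SD, n = 3 each) were at the level of the knockdown, and the knockdown control was the group that differed. No other subunit was called by edgeR in the knockdown, where DESeq2 called 1 more, as higher. DESeq2 called 3567 of the 11908 genes tested in the knockdown, 1829 of them as higher. The list's median was -0.07 with overexpression and 0.15 in the knockdown.

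In the list of CtBP, LCoR and class II deacetylases, 1 of 8 rose in each arm. Of all genes tested, 9.87% rose with overexpression and 12.4% in the knockdown. LCOR, a ligand-dependent corepressor, rose with overexpression by 0.68 (edgeR adjusted p = 0.0126), with 29.2 ± 0.745 FPKM and 20 ± 3.16 FPKM in the control (SD, n = 3 each). The call was lost without overexpression control replicate 2 or 3. In the knockdown the log2 fold change of LCOR was -0.33 (edgeR adjusted p = 0.128), and the arms differed by 1.01 (edgeR adjusted p = 0.00602). CTBP1 rose in the knockdown by 0.30 (edgeR adjusted p = 0.0448), a call lost in 9 of the 12 fits without 1 library. The medians were 0.09 and 0.13.

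Of 16 coactivators, the counterparts of these corepressors, 5 rose and 0 fell with overexpression, where 9.87% of all genes tested were called higher and 8.20% lower. In the knockdown 2 rose and 4 fell, where 12.4% of all genes were called higher and 11.5% lower; the medians were 0.12 and -0.13. With each single library left out, between 3 and 5 rose with overexpression and between 3 and 6 fell in the knockdown. CREBBP and MED1 were called in both arms in opposite directions. MED1, the Mediator subunit that contacts nuclear receptors, had 38.7, 39.0 and 39.6 FPKM with overexpression, against 26.3, 22.7 and 23.9 FPKM in the control, and rose by 0.69 (edgeR adjusted p = 0.00206). It had 27.2, 29.7 and 30.6 FPKM in the knockdown, against 42.0, 40.4 and 45.1 FPKM in the control, and fell by 0.52 (edgeR adjusted p = 0.00364). The groups were apart in both arms, and the overexpression control was the lowest and the knockdown control the highest of the 4 groups.

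CREBBP, a histone acetyltransferase, showed the same order, with 23.1 ± 3.15 FPKM with overexpression and 15 ± 1.61 FPKM in its control, and 17.2 ± 1.63 FPKM in the knockdown and 25.7 ± 2.64 FPKM in its control (SD, n = 3 each). It rose by 0.75 (edgeR adjusted p = 0.00519) and fell by 0.55 (edgeR adjusted p = 0.0127). The calls of MED1 and CREBBP were kept in all 12 fits without 1 library. EP300, its paralog, rose with overexpression by 0.43 (edgeR adjusted p = 0.0187) and had a log2 fold change of -0.31 in the knockdown (edgeR adjusted p = 0.0511). That rise was lost without overexpression replicate 1 or 2 or without overexpression control replicate 2 or 3. The controls differed for MED1 by -0.77 and for CREBBP by -0.62, each past the threshold.

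NCOA5, a coregulator that binds estrogen receptors, rose with overexpression by 2.12 (edgeR adjusted p = 0.0103), with 16.0, 16.7 and 17.7 FPKM, against 6.37, 2.83 and 2.2 FPKM in the control. NCOA3 (SRC-3), an acetyltransferase-recruiting coactivator, rose in the knockdown by 0.53 (edgeR adjusted p = 0.00986). With the knockdown arm's libraries alone, the edgeR adjusted p was 0.053. Its log2 fold change with overexpression was 0.13. NCOA3 had 51.7 ± 7.92 FPKM in the knockdown and 37.0 ± 3.48 FPKM in its control (SD, n = 3 each). The overexpression control, at 67.3 ± 1.28 FPKM (SD, n = 3), stood above the knockdown control by 0.97 on the log2 scale (edgeR adjusted p = 0.000442). PNRC2, a coactivator that also takes part in mRNA decay, rose in both arms, by 0.45 and 0.43 (edgeR adjusted p = 0.0309 and 0.0278). Its overexpression call was lost without any 1 library of that arm except control replicate 1, and its knockdown call without knockdown replicate 1 or knockdown control replicate 1 or 2. PPARGC1A (PGC-1α), a coactivator of mitochondrial genes, fell in the knockdown by 2.97 (edgeR adjusted p = 0.013) at a low level, 0.207 ± 0.201 FPKM and 1.33 ± 0.480 FPKM in the control (SD, n = 3 each). It did not pass with limma on log2(FPKM + 1) (adjusted p = 0.126, the highest over 21 alternatives, of which the other 20 passed). CARM1, an arginine methyltransferase of the coactivator complex, fell in the knockdown by 0.39 (edgeR adjusted p = 0.0158), which was lost without knockdown control replicate 1 or 3.

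Of 13 reported NR0B1 partners, 8 were tested, NCOR1 and COPS2 among them. NR5A1, the best-known partner, stood at most at 0.09 FPKM, and NR0B2, ESR1, ESR2 and PGR also failed the filter on low values. NR5A2, the close relative of NR5A1, was expressed, at 18.1 ± 2.77 FPKM with overexpression and 18.9 ± 5.28 FPKM in its control, and 12.4 ± 2.67 FPKM in the knockdown and 14.2 ± 1.52 FPKM in its control (SD, n = 3 each). NR4A1 (NUR77), an immediate-early orphan receptor, rose in both arms. It had 63.6, 63.1 and 81.4 FPKM with overexpression, against 14.0, 22.9 and 24.3 FPKM in the control, a log2 fold change of 1.87 (edgeR adjusted p = 0.0181) that was lost without overexpression replicate 3 or overexpression control replicate 2 or 3. It had 5.89, 15.3 and 3.90 FPKM in the knockdown, against 2.77, 2.25 and 2.92 FPKM in the control. That fold change of 1.47 (edgeR adjusted p = 0.0417) was lost in 9 of the 12 fits without 1 library and was 0.50 without knockdown replicate 2.

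SNW1 (SKIP), a splicing and transcription cofactor, fell in the knockdown by 0.63 (edgeR adjusted p = 0.00189), with 28.8 ± 0.816 FPKM and 45.8 ± 3.03 FPKM in the control (SD, n = 3 each), and differed between the arms by 0.76 (edgeR adjusted p = 0.00383). With overexpression it had 33.8 ± 1.1 FPKM and 30.2 ± 3.52 FPKM in the control (SD, n = 3 each), so that here too the knockdown control was the group that stood apart.

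The steroid-synthesis and reproductive targets for which NR0B1 is known were nearly silent in these cells. Of 13 genes, 2 passed the filter, the lipoprotein receptor SCARB1 and the anti-Müllerian hormone AMH, and none was called in either arm by edgeR. Both had an unadjusted p below 0.05 with overexpression, where DESeq2 called 1, and 0 did in the knockdown, where DESeq2 called 0. Of the 11908 genes tested, 4120 and 4490 had an unadjusted p below 0.05 in these arms. EdgeR called 18.1% and 23.9% of all genes tested, and DESeq2 called 3078 and 3567 of them. AMH had 1.61 ± 0.215 FPKM with overexpression and 0.727 ± 0.215 FPKM in its control (SD, n = 3 each), at an edgeR adjusted p of 0.0503. SCARB1 had 34.1 ± 6.25 FPKM with overexpression and 44.0 ± 9.40 FPKM in its control, and 54.2 ± 4.82 FPKM in the knockdown and 44.8 ± 3.29 FPKM in its control (SD, n = 3 each). The arms differed by -0.71 (edgeR adjusted p = 0.0333), a call lost in 6 of the 12 fits without 1 library.

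**Figure D5:**
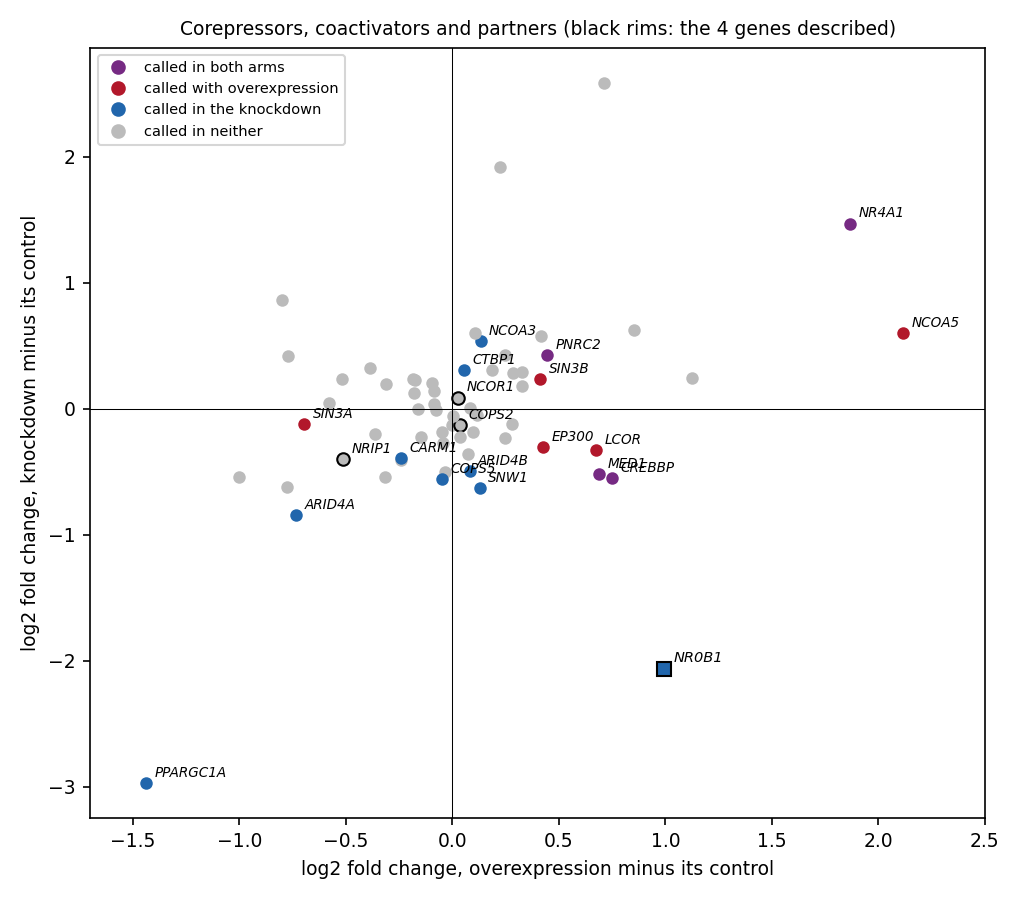
log2 fold change with overexpression (horizontal) against that in the knockdown (vertical) for tested genes of the 7 lists and for NR0B1, NCOR1, NRIP1 and COPS2 (black rims), coloured by the arm in which edgeR called them. MED1 and CREBBP lie at 0.69 and 0.75 with overexpression and at -0.52 and -0.55 in the knockdown; NR4A1 and PNRC2 are above 0 on both axes.

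Patterns over the 12 libraries were compared with those of the 4 genes by Pearson correlation of log2(FPKM + 1) with every other tested gene. These are descriptions over libraries that share groups. The genes most like NR0B1 were SPDEF, an epithelial ETS factor, at 0.956, INPP4B, a phosphoinositide phosphatase, at 0.955, WNT5A, a Wnt ligand, at 0.948, the aquaglyceroporin AQP3 at 0.946 and SUSD2, a membrane protein, at 0.946. SPDEF had 6.97 ± 0.926 FPKM with overexpression and 5.39 ± 2.59 FPKM in its control, and 0.787 ± 0.254 FPKM in the knockdown and 1.49 ± 0.505 FPKM in its control (SD, n = 3 each). The most opposed were RTN4, a reticulon of the endoplasmic reticulum, at -0.988, the small GTPase RHOD at -0.981 and the apoptosis regulator BOK at -0.959. RTN4 had 97.0 ± 1.74 FPKM with overexpression and 110 ± 13.3 FPKM in its control, and 140 ± 1.21 FPKM in the knockdown and 123 ± 3.48 FPKM in its control (SD, n = 3 each).

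The corepressors followed other genes. Closest to NCOR1 were PDGFB at 0.904, KIF7 at 0.887 and GTF3C5 at 0.884, to NRIP1 RFK at 0.930, PXK at 0.929 and IPMK at 0.924, and to COPS2 MRFAP1L1 at 0.909, SRP72 at 0.909 and SPTY2D1 at 0.881. RFK, the riboflavin kinase, had 19.1 ± 1.21 FPKM with overexpression and 28.0 ± 3.51 FPKM in its control, and 21.1 ± 8.03 FPKM in the knockdown and 32.3 ± 4.0 FPKM in its control (SD, n = 3 each), the order of groups seen for NRIP1. Among the 4 genes themselves, NR0B1 correlated with COPS2 at 0.79, with NCOR1 at -0.498 and with NRIP1 at -0.137.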

How the data were processed

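Transcript-level expected counts and FPKM are the 2 quantities that the authors deposited. The submitters' processing notes list fastp, HISAT2 2.0.5, Bowtie2 2.2.8, RSEM and StringTie 1.3.1, and mouse builds although the identifiers are human; annotation, filters and strand setting: not given in the sources used here. Here, counts and FPKM were summed over Ensembl transcripts per symbol and count sums were rounded; assembled transcripts were left out. Genes with 1 FPKM or more in at least 3 libraries (11908), and transcripts with 0.5 FPKM or more in at least 3 (33607), were tested with edgeR 4.0.16 in R 4.3.3 (glmQLFit, robust; TMM) in a single fit of 12 libraries with a mean per group. P-values were adjusted by Benjamini-Hochberg over all tested and called below 0.05. The script was tested on simulated data. It recovered 16.2% of 1.5-fold changes with overexpression and 6.41% in the knockdown. At 2-fold it recovered 52.5% and 53%, and at 4-fold 90.4% and 89.3%. A gene that was not called may therefore still have changed by the smaller amounts. Alternatives were DESeq2 1.42.0, limma 3.58.1 on log2(FPKM + 1) or log2(FPKM + 0.1), other scaling and filters, omitted libraries, and a replicate block. Replicate numbers were not used to pair the libraries except in that block.

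The genes and lists were chosen with earlier results of these data known. Named are all called genes of a list where 4 or fewer were called and otherwise the 4 with the smallest adjusted p, the most abundant where none was called, the most correlated genes, and neighbours. CARM1, PNRC2, NR5A2 and the NCOR1 and COPS2 transcripts shown were chosen after their values were seen. A few genes of the lists are not reported here, although counts over the lists include them.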

Additional observations from a re-analysis of the deposited data

Results flagged for a closer look

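Responses that differed between the arms by the test of the difference itself, with values in log2 units and edgeR adjusted p below 0.05, were those of NR0B1 (3.05), CREBBP (1.3), MED1 (1.21), LCOR (1.01), SNW1 (0.76), EP300 (0.73), ARID4B (0.57), COPS5 (0.51), SIN3A (-0.57), SCARB1 (-0.71) and CORO2A (-1.66). Those of NR0B1, CREBBP, MED1, LCOR, SNW1 and EP300 were kept in all 12 fits that leave out 1 library. Those of ARID4B, COPS5, SIN3A, SCARB1 and CORO2A were lost in 8, 5, 10, 6 and 10 of them. Among the 11, the control groups also differed past the threshold for NR0B1, CREBBP, MED1, LCOR, SNW1, COPS5 and CORO2A.

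The share of NCOR1 transcripts with the 27-base exon was 8.03 percentage points higher with overexpression than in its control, and the knockdown minus its control was -7.56 points, with every library on its own side in each arm. This share was computed after the values had been seen, and the difference was not tested. Among the 3 transcripts with an open end of the coding sequence, overexpression overlapped its control. The 2 transcripts with the exon moved in opposite directions in the knockdown, at log2 fold changes of -2.51 and 0.49, neither of them called.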

How the results depend on the processing

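Genes called with 1 library left out ranged from 810 to 3312 with overexpression (2152 with all libraries), 1502 to 3419 in the knockdown (2851), 2129 to 3768 for the difference of the arms (3054), 2554 to 4924 between the controls (3973) and 1259 to 3322 between overexpression and knockdown (2240). Without both libraries that stand apart, 4456, 4478 and 4272 were called with overexpression, in the knockdown and between these; the knockdown arm alone gave 1833. Limma on log2(FPKM + 1) changed the split of knockdown calls to 1172 higher and 1682 lower, against 1479 and 1372, that of the difference to 1817 and 1207, against 1557 and 1497, and that between the controls to 1661 and 2470, against 2051 and 1922.

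NR0B1 passed with overexpression with DESeq2 (0.998) and limma on log2(FPKM + 1) (1.149), and ranged from 0.614 to 1.272 with 1 library left out. NR0B1 between the controls ranged from 1.116 to 1.773. For overexpression, with 1 library left out, NCOR1 ranged from -0.036 to 0.070, COPS2 from -0.037 to 0.135 and NRIP1 from -0.641 to -0.323; without both libraries that stand apart, NCOR1 stood at -0.037 and COPS2 at -0.038. NRIP1 in the knockdown ranged from -0.638 to -0.235 and was -0.634 without both. The difference of the arms ranged from -0.128 to 0.026 for NCOR1 (limma 0.069 and 0.070) and from -0.276 to 0.141 for NRIP1 (limma 0.019 and 0.021; 0.310 without both). NRIP1 between the controls ranged from -0.126 to 0.193 (limma -0.072 and -0.074; -0.124 without both) and between overexpression and knockdown from -0.214 to 0.192 (0.186 without both). The causes were not tested.

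Of 408 alternatives for the 4 genes, 378 kept direction and side of the threshold. Replicate numbers were not used to pair the libraries in the main fit. Of 18 same-number pairs, 2 had a correlation of deviations above 0.1. Both were of overexpression with its own control, replicate 1 at 0.197 and replicate 2 at 0.131, while replicate 3 was at 0.008. With the replicate block, 1867, 2445 and 2770 genes were called with overexpression, in the knockdown and for the difference, no call on the 4 genes changed, and those of SIN3B, CTBP1, NR4A1 in the knockdown, ARID4B and SIN3A for the difference were lost. With each arm's 6 libraries alone, the calls of PNRC2 and SIN3B with overexpression and of ARID4A, ARID4B, CARM1, CTBP1, NCOA3, NR4A1 and the long NR0B1 transcript in the knockdown were lost. Without a filter on low values, those of SIN3B with overexpression, CTBP1, NR4A1 and PNRC2 in the knockdown, and CORO2A and SIN3A for the difference were lost, and with assembled transcripts those of CTBP1 and, for the difference, SIN3A. For the difference, limma ended the calls of SCARB1 and SIN3A at either pseudocount and of CORO2A at the smaller, DESeq2's size factors that of SIN3A, and leaving out both libraries that stand apart those of CORO2A and SIN3A. Fewer than 100 counts of NR0B1 per knockdown library limit its transcripts.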

Other observations

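NCOR1 also had 3 assembled transcripts that the gene sums leave out, with 2.42% to 6.14% of its counts per library. The most abundant had 3.12 ± 0.790 FPKM with overexpression and 2.05 ± 0.0954 FPKM in its control, and 3.76 ± 0.839 FPKM in the knockdown and 4.88 ± 0.869 FPKM in its control (SD, n = 3 each). NR0B1, NRIP1 and COPS2 had none.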
